A study of Homo sapiens with 8 samples.

Results

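The transcriptome described here is that of NB4 cells in their untreated control state, the starting point of a study of the histone demethylase KDM3B in acute promyelocytic leukemia (APL). NB4 is an established line of human APL cells with the PML/RARα fusion, and the series contains 8 RNA-seq libraries of it, with and without silencing of KDM3B and with and without all-trans retinoic acid (ATRA). The 2 libraries used here, of 8 in all, were chosen by their labels alone and are replicates 1 and 2 of the shNC cells. These cells carried the control lentiviral vector, which the labels call an empty vector and the paper's methods a scrambled shRNA, they received no ATRA, and they are labelled as undifferentiated. The other 6 libraries were not used and no group was compared with another. The labels do not say whether the 2 replicates were separate cultures, so that the spread between them may be technical, and with 2 libraries of a single group no test between conditions was made.

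APL cells are arrested at the promyelocyte, the stage of granulocyte development at which the primary (azurophil) granules are made. These granules hold myeloperoxidase, a set of serine proteases (neutrophil elastase, proteinase 3, azurocidin, cathepsin G) and the proteoglycan serglycin that packs them. The proteins of the specific granules, and later the receptors and calcium-binding proteins of the mature neutrophil, are made only at later stages. MPO, ELANE, PRTN3 and AZU1, which encode myeloperoxidase and 3 of the proteases, are therefore the usual RNA markers of this stage.

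HTSeq counted 19715312 read pairs on genes in replicate 1 and 23658880 in replicate 2. Levels are given as counts per 1000000 of these totals (CPM), for replicate 1 and then replicate 2. An order by CPM is one of the share of reads, in which a long gene counts for more than a short one, and levels of different genes were compared per length, as transcripts per 1000000 (TPM), in which counts are first divided by length, computed with the union of the exons of each gene. A name was called detected at 1 CPM or more in both libraries. Of the 56470 names, 11889 were detected, which is 21.1%, and 34465 (61%) had 0 counts in both libraries. A count of 0 allows up to 3 counts, or 0.152 CPM in replicate 1 and 0.127 CPM in replicate 2, and this limit covers counting error only.

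Protein-coding genes took 97.2% and 97.3% of the counts of the 2 libraries, and 10330 of 19186 protein-coding names were detected. Of the other biotypes, 341 of 3335 long non-coding RNAs and 205 of 5205 processed pseudogenes passed the same threshold. No biotype was assigned to 20172 names without a match in GENCODE 44, of which 834 were detected. A mean of 100 CPM was reached by 2335 names and one of 1000 CPM by 89. The 10 most abundant names together held 6.81% of the counts of replicate 1 and 7.83% of those of replicate 2, the 100 most abundant 21.7% and 22.5%, and the 1000 most abundant 54.2% in each.

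Of single names, MT-CO1 took the largest share of reads. This mitochondrial gene, which encodes a subunit of cytochrome c oxidase, had 12062 and 16015 CPM, MT-CO3 10034 and 10031 CPM, MT-ND4 8348 and 10106 CPM, and MT-CO2 6427 and 6745 CPM. The mitochondrial names held 5.62% and 6.53% of all counts, and 8 of the 30 names with the highest mean CPM were mitochondrial. The share of the 89 ribosomal protein genes was 6.87% and 6.26%, and RPL4, RPLP0 and RPS3 were those among the first 30. Only 49 of the 89 have exon sequence largely free of repeats and overlaps (screen defined below). Alignments that were not unique are in no total, and whether this lowered the share was not tested.

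Among nuclear genes, EEF1A1, the elongation factor that brings aminoacyl-tRNA to the ribosome, took the most reads, at 9928 and 10185 CPM. ACTB, encoding beta-actin, followed at 5075 and 6427 CPM. In the next place stood a gene of the granulocyte lineage: MPO had 4329 and 5383 CPM, a mean of 4856 CPM (SD 745, n = 2), and was 7th of all names by mean CPM. The glycolytic enzyme GAPDH, with 4384 and 4632 CPM, was above MPO in replicate 1 and below it in replicate 2. The remaining names of the first 30 included chaperones, nucleolar proteins, RNA-binding proteins and enzymes of glycolysis. The chaperones were CALR (3013 and 4083 CPM), which works in the endoplasmic reticulum, HSP90AA1 (3289 and 3444 CPM), HSP90AB1 (2965 and 2673 CPM) and HSPA8 (1953 and 2934 CPM). The nucleolar proteins NPM1 and NCL had 3026 and 2395 CPM and 2790 and 2166 CPM, and both were lower in replicate 2.

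**Figure D1:**
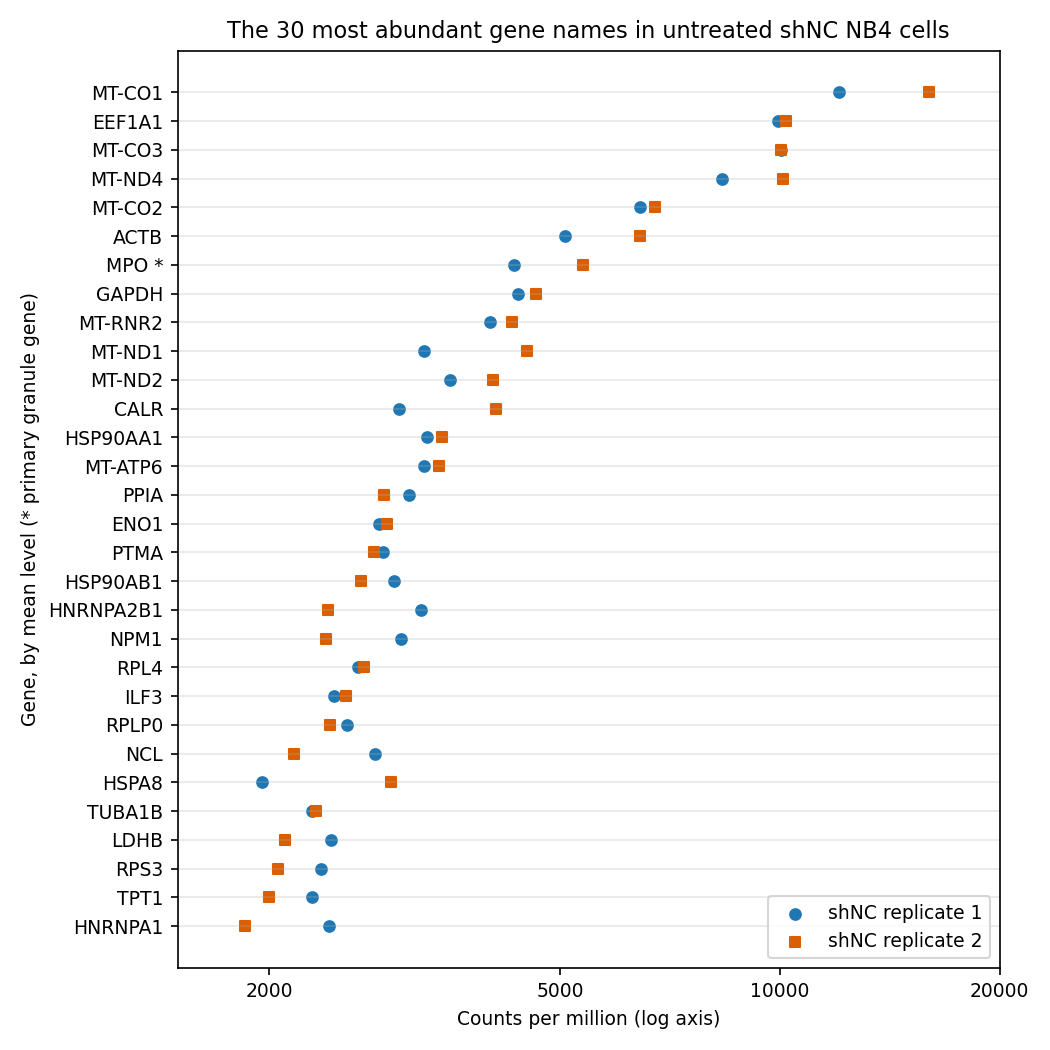
Level of each of the 30 names with the highest mean, in CPM on a log axis, with 1 circle for shNC replicate 1 and 1 square for replicate 2. MPO, marked with an asterisk, lies among the structural and housekeeping genes, at 4329 and 5383 CPM, and MT-CO1 is highest at 12062 and 16015 CPM.

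Per length, 13 of the 30 highest names were mitochondrial and 5 were ribosomal protein genes, numbers which became 10 and 9 with canonical transcripts as the length. MT-CO3 was first, at 46664 and 46532 TPM. The highest nuclear genes were FTL, the light chain of the iron store ferritin, at 7348 and 6987 TPM, GAPDH at 6672 and 7031 TPM, and SRGN, the serglycin core protein of the granules, at 6171 and 6118 TPM. MPO was 18th, at 3565 and 4422 TPM, and became 31st with the canonical lengths. MTATP6P1, a pseudogene that is nearly identical to MT-ATP6, was 16th at 3809 and 4751 TPM, and its reads and those of the mitochondrial gene may have been split between them.

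Of the 4 usual markers of the promyelocyte stage, 1 was abundant and 3 were at 1.01 CPM or less in either library. The exon sequence of these 3 is repeated elsewhere in hg38, as the next paragraph describes. Whether this lowered their counts was not tested, so that they were not read for or against the identity of the cells. MPO was among the most abundant messages of these cells. ELANE, which encodes neutrophil elastase, had 1 count in each library (0.0507 CPM, exact Poisson 95% interval 0.00128 to 0.283, and 0.0423 CPM, 0.00107 to 0.235). PRTN3, which encodes proteinase 3, had 1 count and 24 counts (0.0507 and 1.01 CPM). AZU1, which encodes azurocidin, had 1 count and 10 counts (0.0507 and 0.423 CPM). The intervals cover counting error only.

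The 3 genes lie side by side on chromosome 19 of hg38, on the plus strand, AZU1 from 825097 to 832018, PRTN3 from 840999 to 848175 and ELANE from 851014 to 856247. CFD, which encodes complement factor D and lies next to ELANE, had 3 counts in each library. The hg38 assembly holds, besides the chromosomes, alternate contigs that repeat stretches of them in another haplotype. Each gene's exons were read as words of 100 bases, and 100% of the words of AZU1, PRTN3, ELANE and CFD were also found on such a contig. Reads of these genes would lie over all their exons, and no stretch of ELANE or CFD is shown. The sequences below are a single example stretch for each of 3 genes. They are the first 100 bases of exon 4 of 5 of AZU1 (chr19:830708-830807, plus strand), of PRTN3 (chr19:846147-846246, plus strand) and, for comparison, of CTSG (chr14:24574400-24574499, minus strand), all in hg38 and written in lower case throughout, as each was searched as a whole and no base is singled out.
AZU1: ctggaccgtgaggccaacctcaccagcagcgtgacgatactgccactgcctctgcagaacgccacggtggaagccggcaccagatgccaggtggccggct
PRTN3: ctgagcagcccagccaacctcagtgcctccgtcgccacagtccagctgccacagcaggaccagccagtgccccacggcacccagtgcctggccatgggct
CTSG: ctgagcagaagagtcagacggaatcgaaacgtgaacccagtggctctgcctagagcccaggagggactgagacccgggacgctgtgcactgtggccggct

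The stretches of AZU1 and PRTN3 were each found in 2 places, on chromosome 19 and on the same alternate contig of it, at positions 9551 to 9650 and 24990 to 25089 of that contig. The stretch of CTSG was found in 1 place. CTSG, which encodes cathepsin G, a protease of the same granules, had 106 and 116 CPM. Genes on either side of the repeated stretch were also counted: PRSS57, another granule serine protease, had 44 and 48.4 CPM, PTBP1, a splicing regulator, 582 and 680 CPM, PLPPR3 79.4 and 94.0 CPM, and R3HDM4 33.7 and 40.4 CPM. MED16, with 28.6% of its words on an alternate contig, had 21.6 and 27.3 CPM. Among the neighbours without a repeated word, PALM had 2.59 and 2.75 CPM and MISP 0 counts in both libraries. Of the 11 genes from PRSS57 to R3HDM4, the 4 with all words repeated were thus at most 1.01 CPM in either library.

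**Figure D2:**
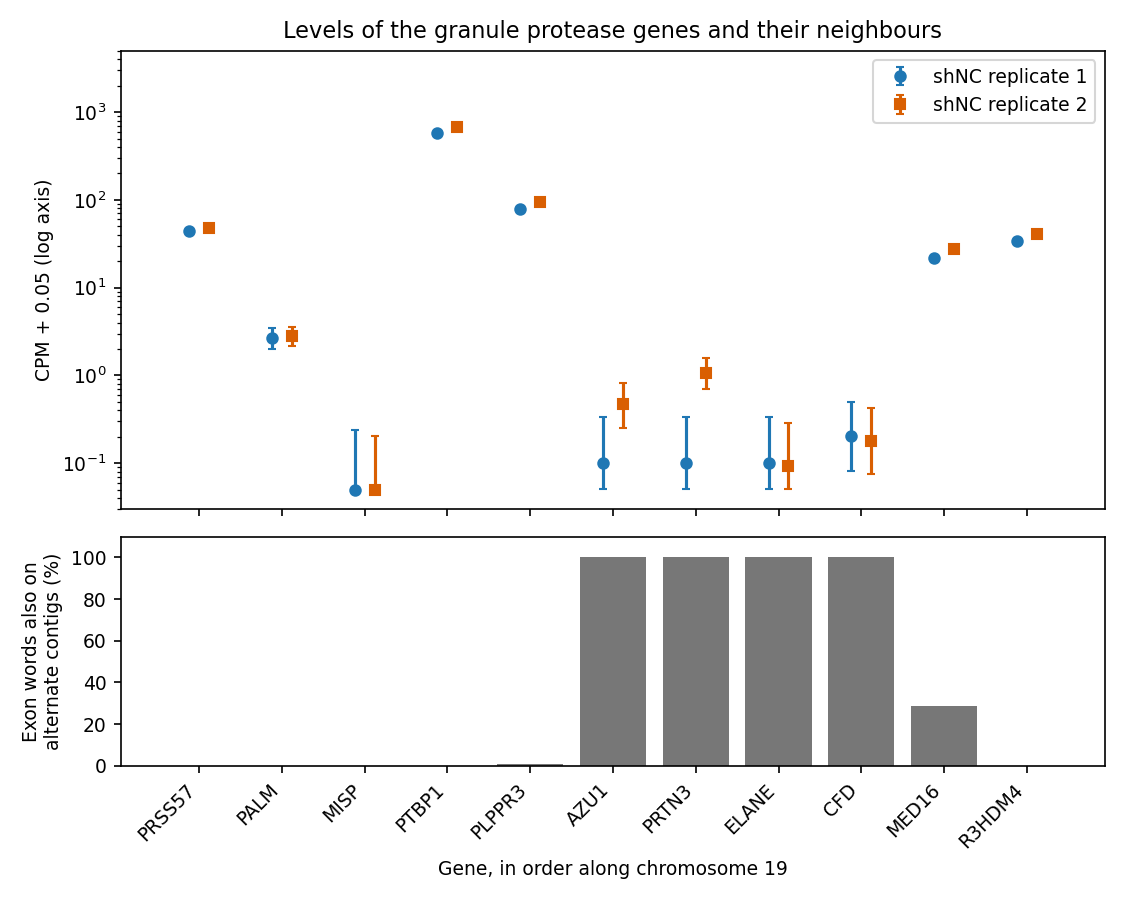
Upper panel: level in CPM on a log axis (0.05 added to show zeros) of the 11 genes from PRSS57 to R3HDM4 in the order of chromosome 19, with exact Poisson 95% intervals, for each shNC library. Lower panel: percent of the 100-base exon words of each gene that are also on alternate contigs, which is 100% for AZU1, PRTN3, ELANE and CFD, the 4 genes near 0 beside MISP, which has 0 counts and no repeated word.

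All protein-coding names were then grouped by the same measure. Among 18014 protein-coding names with no exon word on an alternate contig, 55.5% were detected and 27.8% were at 0. Among 607 names with 90% or more of their words on one, 14.8% were detected and 61.9% were at 0, and 161 of these lie on chromosome 6, 95 on chromosome 17 and 50 on chromosome 19. Repeats within the primary assembly gave like values, with 11.7% detected and 69.5% at 0 among 282 names with 90% or more of their words found elsewhere in it. The names chosen to illustrate this were picked after their values were seen. RPS18, a protein of the small ribosomal subunit, had 2 counts and 1 count, TUBB, a beta-tubulin, 2 counts and 1 count, and TAP1, the peptide transporter of antigen presentation, 0 in both, all with 100% of their words on alternate contigs. HLA-B, with 52.8% of its words there, had 0 counts, whereas B2M, the light chain of the same complex, with 83.9%, had 441 and 371 CPM. Overlap with another gene was measured as well. Of 397 protein-coding names with 90% or more of their exons inside those of another, 32.7% were detected and 42.8% were at 0, against 54.3% and 29.2% with under 50% of overlap and 52% and 22.5% between these bounds. CD68, a macrophage marker in the first of these groups, had 0 counts in both libraries. Whether the repeats or the overlaps lowered these counts was not tested, and whether the authors' index held the alternate contigs is not given in the sources used here. The values of such genes are given here as the files list them.

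**Figure D3:**
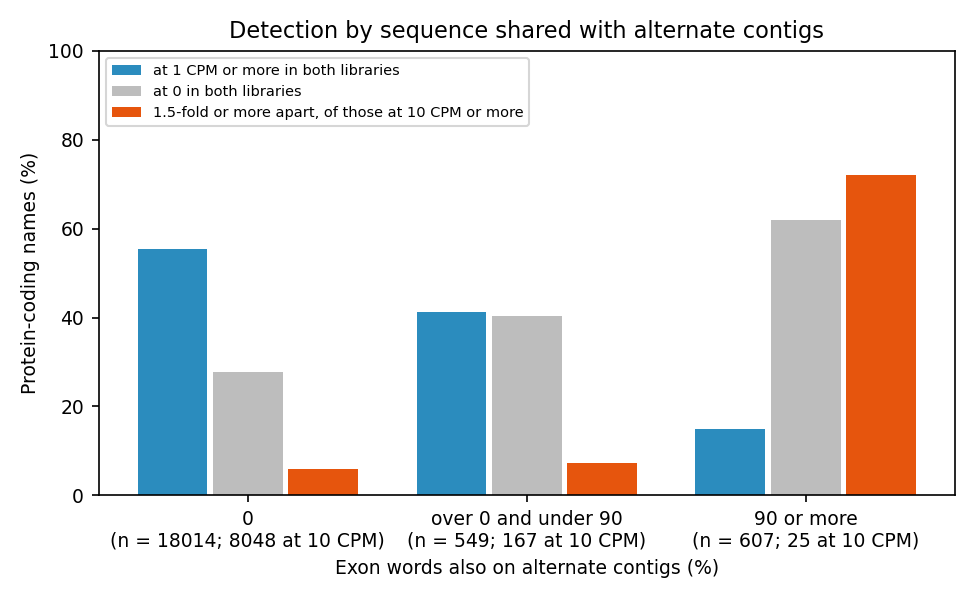
Percent of protein-coding names detected, at 0 in both libraries, or 1.5-fold or more apart between the libraries (of those with a mean of at least 10 CPM), by the share of their exon words on alternate contigs. From 0% to 90% or more of words the detected share goes from 55.5% to 14.8%, the share at 0 from 27.8% to 61.9% and the share apart from 5.85% to 72%.

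Lineage was also read over 16384 protein-coding names with under 10% of their words repeated in hg38 and under 50% of their exons shared with another gene, of which 9345 (57%) were detected and 4385 (26.8%) were at 0. This screen was added after the data were seen, and it leaves out ELANE, PRTN3 and AZU1. These names are called readable, and the 57% and 26.8% are the background for the counts of every list that follows. Exact words were searched, so that genes which differ between haplotypes, such as HLA-DRB1 and HLA-DQA1, pass.

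Of the 15 primary granule genes, 10 were detected, with a median of 6.35 CPM over the whole list. Of its 10 readable members, which leave out ELANE, PRTN3 and AZU1, 9 were detected, with a median of 78.5 CPM. The screen removes these 3 low genes, so that the higher share and median follow in part from it. SRGN had 2060 and 2047 CPM, CTSC, which activates the granule proteases, 606 and 560 CPM, and RNASE2, the eosinophil-derived neurotoxin that early granulocytes also make, 181 and 179 CPM. Both libraries gave nearly the same values for these genes. LYZ, encoding lysozyme, had 37.0 and 38.6 CPM, with 34.7% of its exon length overlapped on the opposite strand. RNASE3 (6.49 and 6.21 CPM) and the defensin DEFA4 (5.02 and 3.17 CPM) were also detected, whereas BPI, an antibacterial granule protein, had 4 and 5 counts. The whole list of 15 genes held 0.738% and 0.838% of the counts, of which MPO was the largest part.

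In the specific granule list, 3 of 13 readable members were detected (background 57%). LCN2, CEACAM8, PGLYRP1, CRISP3, OLFM4 and ARG1 were at 0 in both libraries, LTF (lactoferrin) had 4 and 0 counts, CAMP (cathelicidin) 5 and 4, and MMP8 3 and 4. The 3 that were detected were CYBB (341 and 318 CPM) and CYBA (193 and 173 CPM), the membrane subunits of the phagocyte NADPH oxidase, and CHI3L1 (126 and 68.9 CPM), a chitinase-like protein that differed between the libraries.

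Of the mature neutrophil genes, all readable, 7 of 17 were detected (background 57%). CSF3R, the G-CSF receptor, had 67.6 and 65.9 CPM, the gelatinase MMP9 52.8 and 51.0 CPM, and the integrin ITGAM (CD11b) 20.7 and 26.2 CPM. S100A9, one of the most abundant messages of mature neutrophils, had 8.93 and 3.72 CPM and its partner S100A8 1.47 and 0.850 CPM. FCGR3B, MME and ALPL were at 0, and CXCR1 and the formyl peptide receptors FPR1 and FPR2 had between 0 and 7 counts.

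Of the monocyte genes, 5 of 14 readable members were detected, among them FCN1 at 32.0 and 32.1 CPM and the M-CSF receptor CSF1R at 4.62 and 5.11 CPM. CD14, the lipopolysaccharide co-receptor, had 3 and 7 counts, and CD163, C1QB and C1QC were at 0. In the eosinophil, basophil and mast cell list, 4 of 10 readable members were detected. Of these EPX, eosinophil peroxidase, had 146 and 284 CPM, and HDC, which makes histamine, 200 and 325 CPM, so that both were higher in replicate 2 by more than 1.5-fold, whereas CLC, CPA3 and IL5RA were below 1 CPM in both libraries and FCER1A was at 0.

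**Figure D4:**
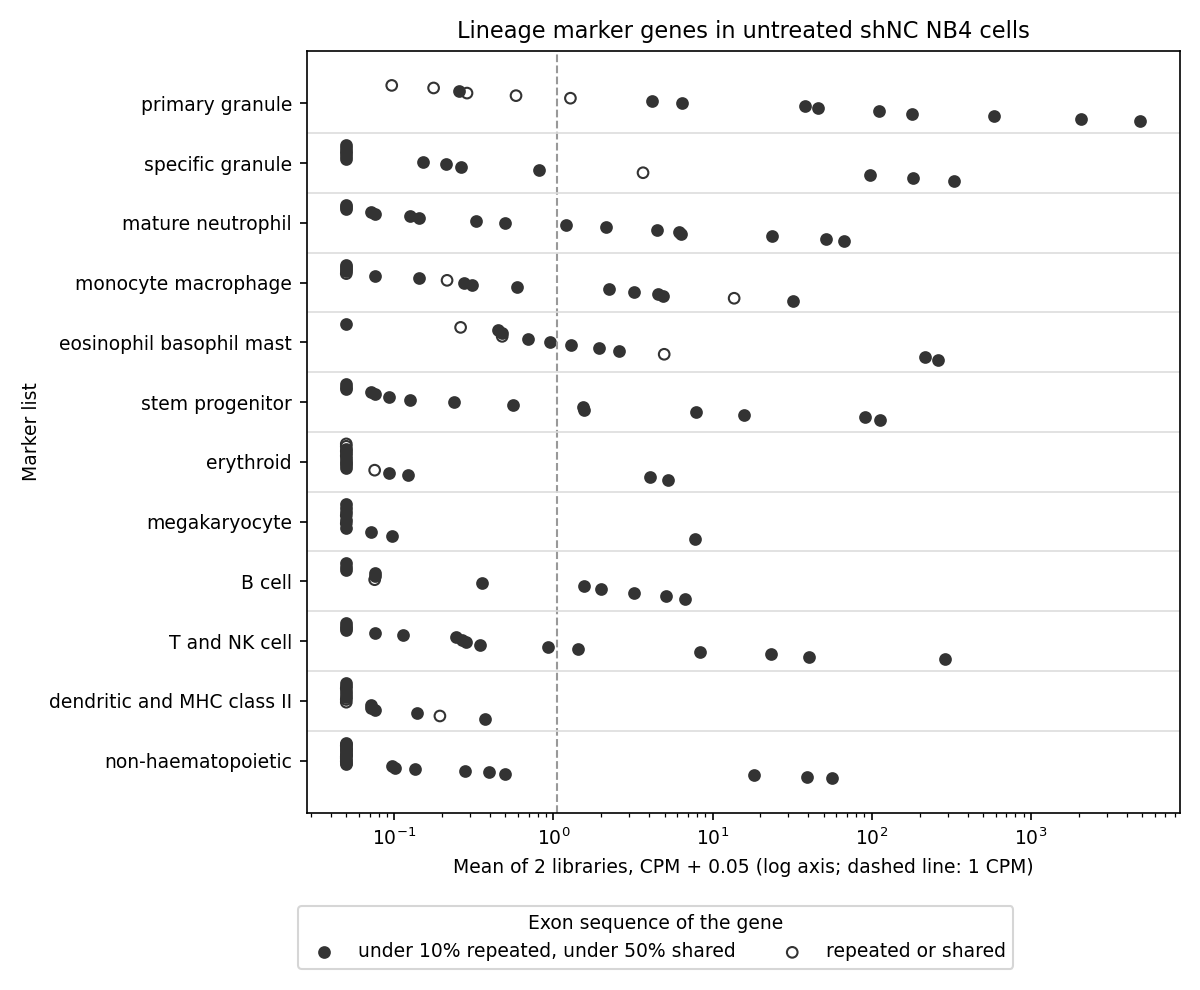
Mean level over the 2 shNC libraries of each member of 12 marker lists, in CPM on a log axis (0.05 added to show zeros). Filled points are genes with readable exon sequence, open points genes with repeated or shared sequence, and the dashed line marks 1 CPM; 9 of 10 filled primary granule genes lie above it, against 3 of 13 filled specific granule genes and 0 of 10 in the dendritic and MHC class II list.

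Members of the lists for other blood lineages were detected as well. Of 11 readable erythroid genes, 2 were detected, the transcription factor GATA1 (4.72 and 5.75 CPM) and EPOR (3.75 and 4.23 CPM), while HBB, AHSP and ALAS2 were at 0. ITGA2B (7.86 and 7.65 CPM) was the only one of 8 readable megakaryocyte genes. In the B cell list 5 of 11 readable genes were detected, against 57% of all readable names, at 7.51 CPM or less in either library, and MS4A1 (CD20) and PAX5 were at 0. Among 16 T and NK cell genes 4 were detected: CD4, which monocytic cells also express, at 296 and 283 CPM, NKG7 at 46.5 and 33.9 CPM, PRF1 (perforin) at 23.3 and 23.1 CPM, and NCAM1 (CD56) at 7.05 and 9.55 CPM. CD3G, a chain of the T cell receptor complex, CD8A and CD5 were at 0, and CD3E had 6 and 2 counts.

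None of the 14 dendritic and MHC class II genes was detected. CIITA, the master regulator of MHC class II genes, was at 0 in both libraries and CD74, the invariant chain, had 1 and 3 counts. Both are readable, whereas HLA-DRA, HLA-DPA1 and HLA-DPB1, also at 0, have 100% of their words on alternate contigs. Outside blood, 3 of 20 readable genes of other tissues were detected, DES (desmin, 55.7 and 57.4 CPM), PECAM1 (CD31, also a leukocyte protein, 45.1 and 33.2 CPM) and EPCAM (17.3 and 19 CPM), while the collagens COL1A2 and COL3A1, the endothelial CDH5 and KDR and the neuronal SNAP25 were at 0. In RNA from a whole culture, fewer cells of a type and less RNA per cell cannot be told apart.

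In the stem and progenitor list, members ranged from 0 counts to over 100 CPM. CD34 had 1 and 0 counts, KIT, the stem cell factor receptor, 15 and 6 counts (0.761 and 0.254 CPM), and PROM1, THY1, AVP and SPINK2 at most 1 count. CD38, an antigen of committed progenitors, had 117 and 109 CPM, GATA2 69.3 and 113 CPM, and the receptor FLT3 18.9 and 12.7 CPM. In all, 6 of the 15 genes, which are all readable, were detected (background 57%).

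Of the surface antigens by which APL cells are typed, 11 of 16 readable genes were detected, against 57% of all readable names. ANPEP (CD13) had 467 and 470 CPM and was the highest of them per length also, at 338 and 339 TPM, ITGB2 (CD18) had 151 and 168 CPM, FUT4, the enzyme of the CD15 epitope, 105 and 108 CPM, and CD33 63.6 and 75.0 CPM. CD44 (13.9 and 29 CPM) and ITGAX (5.78 and 11 CPM) were more than 1.5-fold higher in replicate 2, and ITGAL (17.7 and 8.50 CPM) was more than 1.5-fold higher in replicate 1. CD7 was at 0 and CD2 had 5 counts in each library.

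Of the listed transcription factors of haematopoietic lineages, all readable, 21 of 24 were detected (background 57%). MYC had 457 and 619 CPM, MYB 288 and 437 CPM, and IKZF1 268 and 325 CPM. The granulocytic factors SPI1 (PU.1), with 140 and 174 CPM, CEBPA, with 220 and 163 CPM, and GFI1, with 176 and 177 CPM, stood beside RUNX1, with 186 in each. An antisense neighbour covers 43.9% of the exons of CEBPA. CEBPE, which drives the specific granule genes, was also detected, at 51.7 and 74.9 CPM. Of the factors of the monocytic branch, IRF8 had 3.80 and 2.96 CPM, KLF4 5.78 and 6.76 CPM and EGR1 1.78 and 2.83 CPM. Per length these 3 lay between 1.37 and 6.72 TPM, and the 7 factors from MYC to RUNX1 between 43.4 and 368 TPM. The 3 not detected were TAL1, ERG and EGR2.

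PML and RARA, whose fusion drives APL, had 76.4 and 99.6 CPM and 49.0 and 47.0 CPM, values which hold reads of the fusion and of the normal alleles together, and 21.4% of the exon length of RARA overlaps a gene on the opposite strand. Their partner RXRA had 126 and 178 CPM. The other retinoic acid receptors were below 1 CPM in both libraries, RARB with 1 and 0 counts and RARG with 3 and 15. The corepressor NCOR1 (164 and 229 CPM) and the deacetylase HDAC3 (121 and 132 CPM) were also detected. CYP26A1, the retinoic acid hydroxylase that is a classical target of retinoic acid, had 2 and 8 counts in these untreated cells, and CRABP1 was at 0.

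Haemostasis genes were included because bleeding marks the disease in patients. F3, tissue factor, had 37.5 and 30.4 CPM. ANXA2 (56.4 and 51.4 CPM) and S100A10 (19.9 and 25.7 CPM), which form the plasminogen receptor annexin A2 complex, and the activator PLAU (26.2 and 23.8 CPM) with its receptor PLAUR (17.4 and 17.1 CPM) were also detected. PLAT, F7, F13A1 and PDPN were at 0. In all, 7 of the 14 genes, which are all readable, were detected, against 57% of all readable names.

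All 18 proliferation genes were detected, 17 of them readable with a median of 330 CPM. MKI67 had 1009 and 1188 CPM, the replicative helicase subunit MCM7 898 and 767 CPM, TOP2A 689 and 614 CPM, the sliding clamp PCNA 515 and 392 CPM, and CDK1 345 and 216 CPM. CDK1 was the member with the widest gap among these 5. The D cyclins, which open the G1 phase, were all detected: CCND3 had 220 and 252 CPM, CCND2 158 and 200 CPM and CCND1 36.1 and 64.0 CPM. Of the cyclin-dependent kinase inhibitors, CDKN2A and CDKN2B were at 0 and CDKN1A (p21) had 11 and 15 counts, whereas CDKN1B, CDKN2C and CDKN2D lay between 20.2 and 41.6 CPM.

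KDM3B, which demethylates histone H3 at lysine 9 and which the study silenced in other libraries, had 189 CPM in each of the 2 libraries. Its relatives JMJD1C and KDM3A had 141 and 126 CPM and 54.1 and 61.8 CPM. Per length, KDM3B had 87.7 and 87.5 TPM, JMJD1C 46.1 and 41.0 TPM and KDM3A 14.8 and 16.9 TPM, and in both libraries this order was the same.

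Of the 39 HOX genes, the homeobox factors that set axial position and fall in expression as blood cells mature, 14 were detected and 14 were at 0. Over the 36 readable members 14 were detected and 13 were at 0 (36.1%, background 26.8%). The HOXD cluster was represented by HOXD13 alone, at 88.1 and 98.9 CPM, which was the highest of the family per length also, at 133 and 149 TPM. HOXA10 had 85.5 and 73.3 CPM, HOXC10 25.9 and 23.8 CPM, HOXA13 19.5 and 18.6 CPM and HOXA11 14.5 and 13.4 CPM. The detected genes were 6 of HOXA, 6 of HOXC, 1 of HOXB (HOXB9, 5.43 and 9.81 CPM) and 1 of HOXD. HOXA9, a factor of other myeloid leukemias, had 1.47 and 1.52 CPM.

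Among long non-coding RNAs, LRRC75A-AS1 took the most reads, at 498 and 501 CPM, followed by NORAD, an RNA induced by DNA damage, at 429 and 365 CPM. Per length NORAD was above LRRC75A-AS1, at 290 and 246 TPM against 203 and 204 TPM, and with canonical lengths below it, at 167 and 145 TPM against 2365 and 2430 TPM. Also among the 10 highest by mean CPM were OIP5-AS1 (219 and 280 CPM), GABPB1-AS1 (188 and 271 CPM) and the snoRNA hosts SNHG1 (233 and 202 CPM) and GAS5 (232 and 186 CPM). The others of the 10, LINC00926, DANCR, NEAT1 and SNHG3, had 117 to 239 CPM. Without a stranded protocol stated, reads of an antisense RNA and of its partner gene cannot be told apart.

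The names at 0 were set against the 61% at 0 among all names and the 26.8% among readable protein-coding names. Of 399 olfactory receptors, 388 (97.2%) were at 0, and the highest, OR2B6, had a mean of 0.0761 CPM. At 0 were also 90 of 94 keratin-associated proteins, 35 of 36 beta defensins and 12 of 13 interferon alpha genes. Of the 48 GAGE and MAGE antigens, 42 (87.5%) were at 0 and 2 were detected, MAGEF1 being the highest at a mean of 40.9 CPM. Keratins were at 0 in 47 of 55 cases, and KRT10 was the highest at a mean of 11.3 CPM. Of the other families counted, 20 of 27 taste receptors (74.1%), 29 of 66 protocadherins (43.9%), 110 of 506 zinc finger proteins (21.7%), 108 of 332 solute carriers (32.5%) and 3 of 89 ribosomal protein genes were at 0. So were 522 of 548 immunoglobulin and T cell receptor segments (95.3%) and 10 of 37 mitochondrial names, families without readable members. Over readable members alone the shares at 0 were 96.8% for olfactory receptors, 93% for keratin-associated proteins, 95.5% for beta defensins, 100% for interferon alpha genes, 82.1% for GAGE and MAGE antigens, 84.2% for keratins, 53.8% for taste receptors, 37.2% for protocadherins, 20.6% for zinc finger proteins and 32.6% for solute carriers.

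The 2 libraries were compared with each other to show how closely a level is known. Their counts differed by more than sampling noise (chi-square of 20.3 per degree of freedom over names), so that they are not a single library deposited a second time. Of 8617 names with a mean of at least 10 CPM, the median fold between them was 1.15 and the 95th percentile 1.55. At least 1.5-fold apart were 560 names (6.5%), 332 higher in replicate 2 and 228 higher in replicate 1. Among names with 90% or more of their words on alternate contigs it was 18 of 25.

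Of the names furthest apart, CUTA (52.6 and 2.28 CPM) and YTHDC1 (31.7 and 2.83 CPM), higher in replicate 1, and DNAJA3 (4.77 and 26 CPM), higher in replicate 2, have 100% of their words on alternate contigs. The readable genes furthest apart were of other kinds. Higher in replicate 2 were FADS2 (89.7 and 344 CPM) and SCD (265 and 796 CPM), both fatty acid desaturases, INSIG1 (25.7 and 107 CPM), a regulator of sterol synthesis, and the glycolytic PFKFB4 (5.88 and 24.7 CPM) and ALDOC (4.31 and 24.3 CPM). Higher in replicate 1 were CYP1B1 (269 and 35.2 CPM), a cytochrome P450, the chemokine CCL2 (63.0 and 15.1 CPM), CNR2 (18.5 and 4.23 CPM), THBS1 (114 and 37.2 CPM) and BMF (32.1 and 10.1 CPM).

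**Figure D5:**
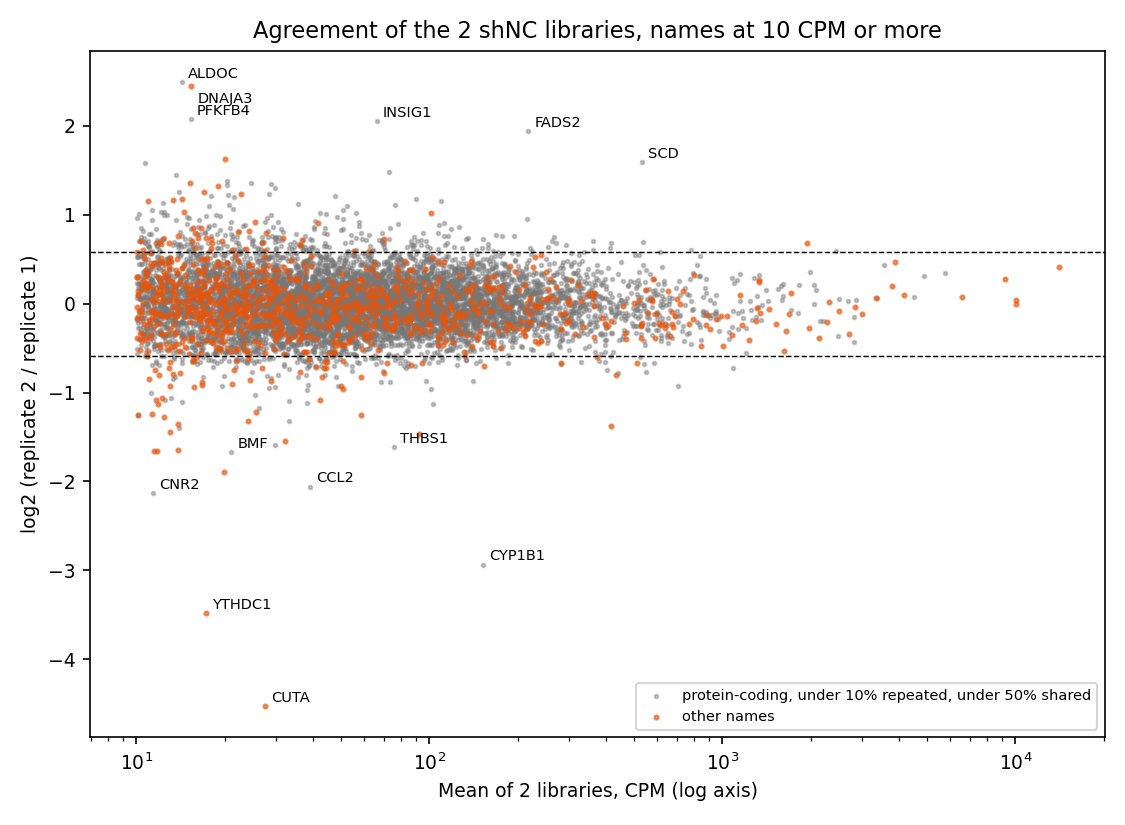
Ratio of replicate 2 to replicate 1 on the log2 scale against the mean level in CPM on a log axis, for 8617 names with a mean of at least 10 CPM; dashed lines mark a 1.5-fold gap. Of these names 560 lie outside the lines, with CYP1B1, CUTA and YTHDC1 lowest and ALDOC and DNAJA3 highest.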

How the data were processed

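Per the labels and the study's methods, RNA was extracted with TRIzol, libraries were made with a TruSeq RNA kit, and reads were trimmed (Trim Galore), aligned by the authors with HISAT2 to the hg38 build and counted with HTSeq on a RefSeq annotation. The submitters' processing notes also list Picard, SAMtools and DESeq2, without versions. The deposited files hold 1 raw count per gene name, without normalization, and were used for the 2 shNC libraries. Names follow Ensembl usage; 36298 of 56470 (99.1% of counts) matched GENCODE 44, 1325 of them by an older symbol. HTSeq left out 9.28% and 8.83% of read pairs as outside genes and 4.18% and 4.25% as ambiguous; these, and 4323905 and 5233272 alignments that were not unique, are in no total. The kit is not stated to be stranded. The depth limits precision at low levels: 3 counts are 0.152 and 0.127 CPM.

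CPM used the total on genes. TPM used the union of exons. Words of 100 bases, every 10 bases of the exons, were searched in all contigs of hg38. Readable names were protein-coding with under 10% of words repeated and under 50% of exon shared. Exact Poisson intervals of 95% were computed. Functions were tested on simulated data. edgeR 4.0.16 (TMM), DESeq2 1.42.0 (size factors), R 4.3.3, Python 3.11.15, numpy 2.4.6, pandas 2.3.3, scipy 1.17.1, numba 0.67.0 and matplotlib 3.10.9 were used. Alternatives were other thresholds, scalings and lengths, members without opposite-strand exons, and each library left out; the readable names and the canonical length were added after seeing the data.

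The genes named were the 30 highest by CPM and by TPM, the 10 highest long non-coding RNAs, the marker lists, HOX genes, and the 5 names furthest apart in each direction; the 5 readable ones in each direction and the genes beside ELANE were chosen after their values were seen. Some members of the lists are not reported here by name. The members and lists were chosen with earlier results of these data known.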

Additional observations from a re-analysis of the deposited data

How the results depend on the processing

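Of 87 values recomputed with both libraries, 76 stayed within 1.5 times the count or within 1 SD of the level and 11 moved. Detected names numbered between 11889 and 13214 across thresholds and scalings. Without mitochondrial names, the 100 most abundant held 18.3% of counts in place of 22.1%. At 0.5 CPM, 8 eosinophil, basophil and mast cell genes were detected in place of 5. Without members overlapped on the opposite strand, 3 of the stem and progenitor list in place of 6 and 2 of the T and NK cell list in place of 4 remained. As members were dropped, so did 5 of 12 APL surface antigens, 12 of 21 haematopoietic transcription factors, 4 of 9 retinoid and PML genes and 0 of 3 D cyclins. At a minimum mean of 1 CPM, 1651 names were 1.5-fold apart in place of 560. Among readable protein-coding names 4385 were at 0, a smaller base than all names. MPO was 31st per kilobase with canonical lengths in place of 18th. Leaving out 1 library of 2 cannot move a mean by 1 SD, so that only the values are given. With 1 left out, MPO was 4329 to 5383 CPM, ELANE 0.0423 to 0.0507, PRTN3 0.0507 to 1.01 and AZU1 0.0507 to 0.423, so that the last pair rest on replicate 2; detected names were 12254 to 12286. No paired analysis was possible because only 1 group was used. Levels below 3 counts are not resolved at this depth.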
